A study of Mus musculus with 2 samples.

Results

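The small GTPases of the Rab, Arf and Arl families were followed in mouse hybridoma cells with and without the bursal peptide BSP-II. A gene was a member if its symbol was Rab, Arl or Arf followed by a number, and if a non-control probe present on both arrays carried a RefSeq accession of that gene. Effectors such as Rab3ip, Rab11fip and Arl6ip genes were left out of the members. The rule found 131 probes for 76 genes, of 41163 probes and 17302 named genes on the arrays: 54 Rab, 6 Arf and 16 Arl genes. The rule itself uses names and accessions, not measured values. Another 9 genes of these families in the RefSeq gene table, Rab4a, Rab7, Rab26, Rab36, Rab44, Arl9, Arl13a, Arl14 and Arl16, had no probe matched by accession and were not analysed here.

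A hybridoma is an immortal line that secretes antibody, obtained by the fusion of a B cell and a myeloma cell; the cells used here carry the label 1H5F9. Both groups were cultured for 4 h in medium with heat-inactivated fetal bovine serum, with 0 µg/ml BSP-II in the untreated group and 5 µg/ml in the treated group. There was 1 array per group, so no difference below has a replicate check, no test was made, and higher and lower describe these 2 arrays. The series' design text mentions independent experiments with different cells, but both arrays carry replicate number 1.

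Rab and Arf proteins are molecular switches that mark membranes. Exchange factors load them with GTP, effectors such as tethers, motors and coats bind the loaded form, and GTPase-activating proteins turn them off. Rabs carry lipid anchors at the C-terminus and are drawn from membranes by GDI, whereas Arf proteins insert a myristoylated N-terminus. In cells that secrete antibody, the Rabs and Arfs of the route from the endoplasmic reticulum through the Golgi carry the secreted protein, and those of endosomes sort receptors and membrane.

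The start sites of the members are described at the sequence level, and 4 are printed for genes named below. These are Rab1a, Arl10 and Arl4c, the lowest and the highest of the members measured on both arrays, and Rab3c, which was not well above background on either. Each is the run of 250 bases before an annotated start, 5′ to 3′ on the gene's strand, taken from RefSeq on GRCm38.p6, with every CG dinucleotide in capitals. Rab1a lies at chr11:20201162-20201411, plus strand; Arl10 at chr13:54574797-54575046, plus strand; Arl4c at chr1:88702192-88702441, minus strand; and Rab3c at chr13:110280207-110280456, minus strand.
Rab1a: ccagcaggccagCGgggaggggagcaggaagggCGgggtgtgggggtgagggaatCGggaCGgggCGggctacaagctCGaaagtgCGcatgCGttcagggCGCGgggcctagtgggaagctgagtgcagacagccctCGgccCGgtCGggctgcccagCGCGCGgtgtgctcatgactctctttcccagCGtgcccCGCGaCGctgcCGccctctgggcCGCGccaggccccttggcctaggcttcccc
Arl10: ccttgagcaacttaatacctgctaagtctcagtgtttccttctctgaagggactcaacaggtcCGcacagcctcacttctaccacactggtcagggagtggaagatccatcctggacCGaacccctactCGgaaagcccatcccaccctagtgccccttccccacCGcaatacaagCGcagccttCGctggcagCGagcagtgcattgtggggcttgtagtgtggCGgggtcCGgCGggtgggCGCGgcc
Arl4c: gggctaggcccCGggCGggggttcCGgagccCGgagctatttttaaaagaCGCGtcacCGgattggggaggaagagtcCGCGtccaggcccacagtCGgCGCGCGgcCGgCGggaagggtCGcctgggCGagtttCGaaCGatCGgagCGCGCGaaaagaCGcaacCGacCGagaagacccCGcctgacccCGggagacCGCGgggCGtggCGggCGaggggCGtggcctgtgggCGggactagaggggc
Rab3c: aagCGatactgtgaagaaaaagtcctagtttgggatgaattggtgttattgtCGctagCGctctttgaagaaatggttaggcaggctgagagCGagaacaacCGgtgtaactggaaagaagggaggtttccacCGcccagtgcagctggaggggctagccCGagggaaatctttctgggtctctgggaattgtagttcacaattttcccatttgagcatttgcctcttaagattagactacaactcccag

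The printed runs hold 23 CG dinucleotides for Rab1a, 12 for Arl10, 35 for Arl4c and 7 for Rab3c. Over all matched members (66 of 76 genes, 82 start sites) the median was 19 CG per window and 62.4% G or C, against 6 CG and 52.4% over all 32851 windows of the table. The members' windows varied widely, from 2 CG in a window of Rab43 to 42 in a window of Rab23. The observed-to-expected ratio of CG exceeded 0.6 in 69.5% of the members' windows and in 34.0% of all windows. The motif GGGCGG, on either strand, was present in 74.4% of the members' windows and in 32.7% of all windows. TATAAA, again on either strand, was in 4.88% against 12.4%, and the palindrome CACGTG in 11.0% against 6.02%. GGGCGG and CACGTG each hold a CG, so their shares are tied to the CG count. TATAAA holds only A and T, so its share is tied to the share of G or C. The windows of the 60 matched members above background on both arrays had a median of 20 CG, and those of the 6 matched members that were not had 14. These letters are a description and do not show that a factor binds.

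Each array was brought to a common scale by its 75th percentile, 309 on the untreated and 356 on the BSP-II array, and the signals below are scaled so that both percentiles equal 332. A difference is log2 of BSP-II minus untreated on that scale. Probes well above background numbered 24681 on the untreated and 27283 on the BSP-II array, and no member spot was saturated. The plasma cell markers were well above background in 9 of 9 genes on both arrays, Sdc1, Jchain and Mzb1 among them, and the B cell markers in 5 of 6, with Pax5 below background. Their summed unscaled signals were 364737 and 383735 for plasma cells and 19619 and 20792 for B cells. Most of the B cell sum was Cd79b (17742 and 19144.5). Cd79a (23.7 and 22.3) and Cd22 (12.6 and 13.0) were dim, and in the plasma cell list Cd38 had 74.5 and 67.1. Markers of T cells, macrophages, fibroblasts and erythroid cells summed to between 116 and 488 per list and array, and epithelial markers to 4615 and 5439, most of it Epcam. Of those markers on the arrays, 5 and then 6 of 6 T cell, 3 and then 4 of 5 macrophage, 4 of 6 fibroblast, 3 of 4 erythroid and 4 of 5 epithelial genes were well above background (untreated, then BSP-II where they differ); Lyz2 and Dcn were not.

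Of the 76 members, 67 were well above background on both arrays: 46 Rab, 6 Arf and 15 Arl genes. Of all named genes, 74.3% were above background on both. As a group they hardly differed between the arrays. Their median difference was −0.01, with quartiles of −0.14 and 0.11, and the median of all 12855 genes measured on both arrays was −0.03, with quartiles of −0.18 and 0.11. Above the all-gene median lay 35 of 67 members (52.2%), where 50% of all genes lie, and 32 lay above 0, as did 44.7% of all genes. Within 0.25 of 0 lay 57 members (85.1%) and 71.5% of all genes. None of these 67 was 2-fold different, against 1.21% of all genes. Among the 67, only Rab1a and Arl10 differed by at least 1.5-fold by their brightest probe, both lower with BSP-II (3.0%). Rab6b, above background on the BSP-II array only, is given further on. At that threshold 6.04% of all genes were called, 1.21% higher and 4.83% lower. The call is sensitive to the scaling: scaling to the array medians added 0.12 to every difference and left none of the 67 past 1.5-fold, as did quantile scaling; with loess scaling both stayed past it. Scaling to the medians also changed the balance over all genes from 156 higher and 621 lower to 307 and 380; with quantile scaling the balance was 231 and 436, with loess it was 223 and 450, and it was 307 and 255 in the authors' deposited table.

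The spread of the differences depended on the signal. Among genes at or above the median level, which held 41 of the 67 members (61.2%), the SD of the differences was 0.19 over members and 0.18 over all genes. Among dimmer genes it was 0.21 over 26 members and 0.39 over all. At least 1.5-fold different were 1.26% of the brighter and 10.8% of the dimmer genes.

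**Figure D1:**
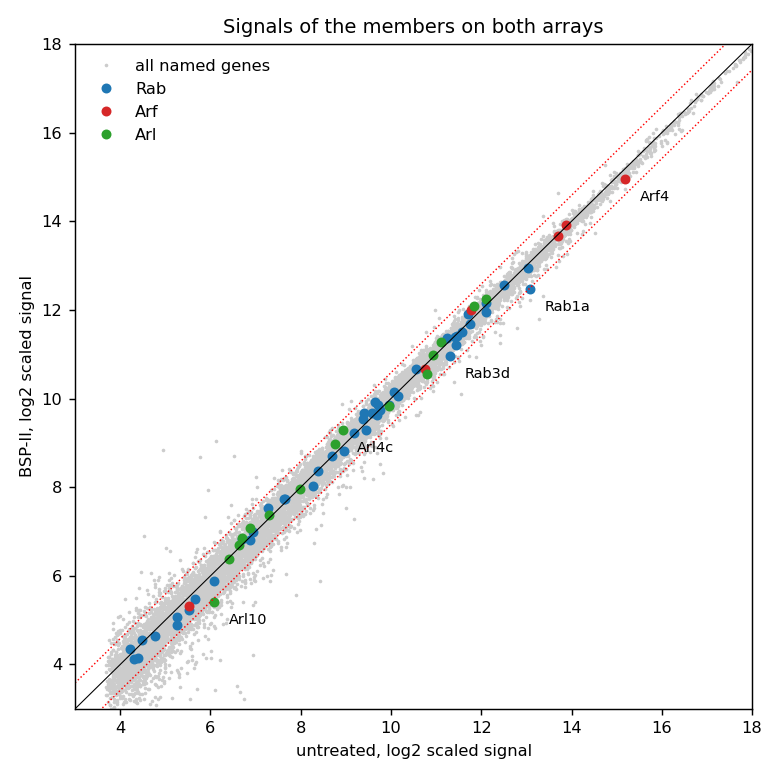
Scaled signal (log2) on the untreated array (x axis) and the BSP-II array (y axis), with grey points for all 12855 genes and coloured points for the 67 measured Rab, Arf and Arl genes. The solid line marks equal signals and dotted lines 1.5-fold; among the coloured points only Rab1a and Arl10 lie beyond the dotted lines, both on the lower side.

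The scanner software's error of a spot, expressed on the log2 difference, was 0.20 for the median member, so most differences here were about as large as or smaller than that error. That error is the software's estimate for a spot, not a scatter measured here. It was 0.204 both for Arf4, at an untreated signal of 37216, and for Rab20, at 695. The 8 spots of Rab5a, with an error of 0.204, had an SD of 0.05. A second gauge is the agreement of different probes of a gene. Of the members, 35 had at least 2 measured probes, and the gap between the differences of the brightest pair had a median of 0.13 and a 90th percentile of 0.25. Over 4032 genes with 2 measured probes these were 0.13 and 0.48. Where both probes were at or above the median level, the order was the other way: the median gap was 0.11 and the 90th percentile 0.45 over 16 members, against 0.07 and 0.27 over 1350 genes. The pair shared its sign in 23 of 35 members (65.7%) and in 64.7% of all such genes. Neither gauge covers variation between cultures.

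**Figure D2:**
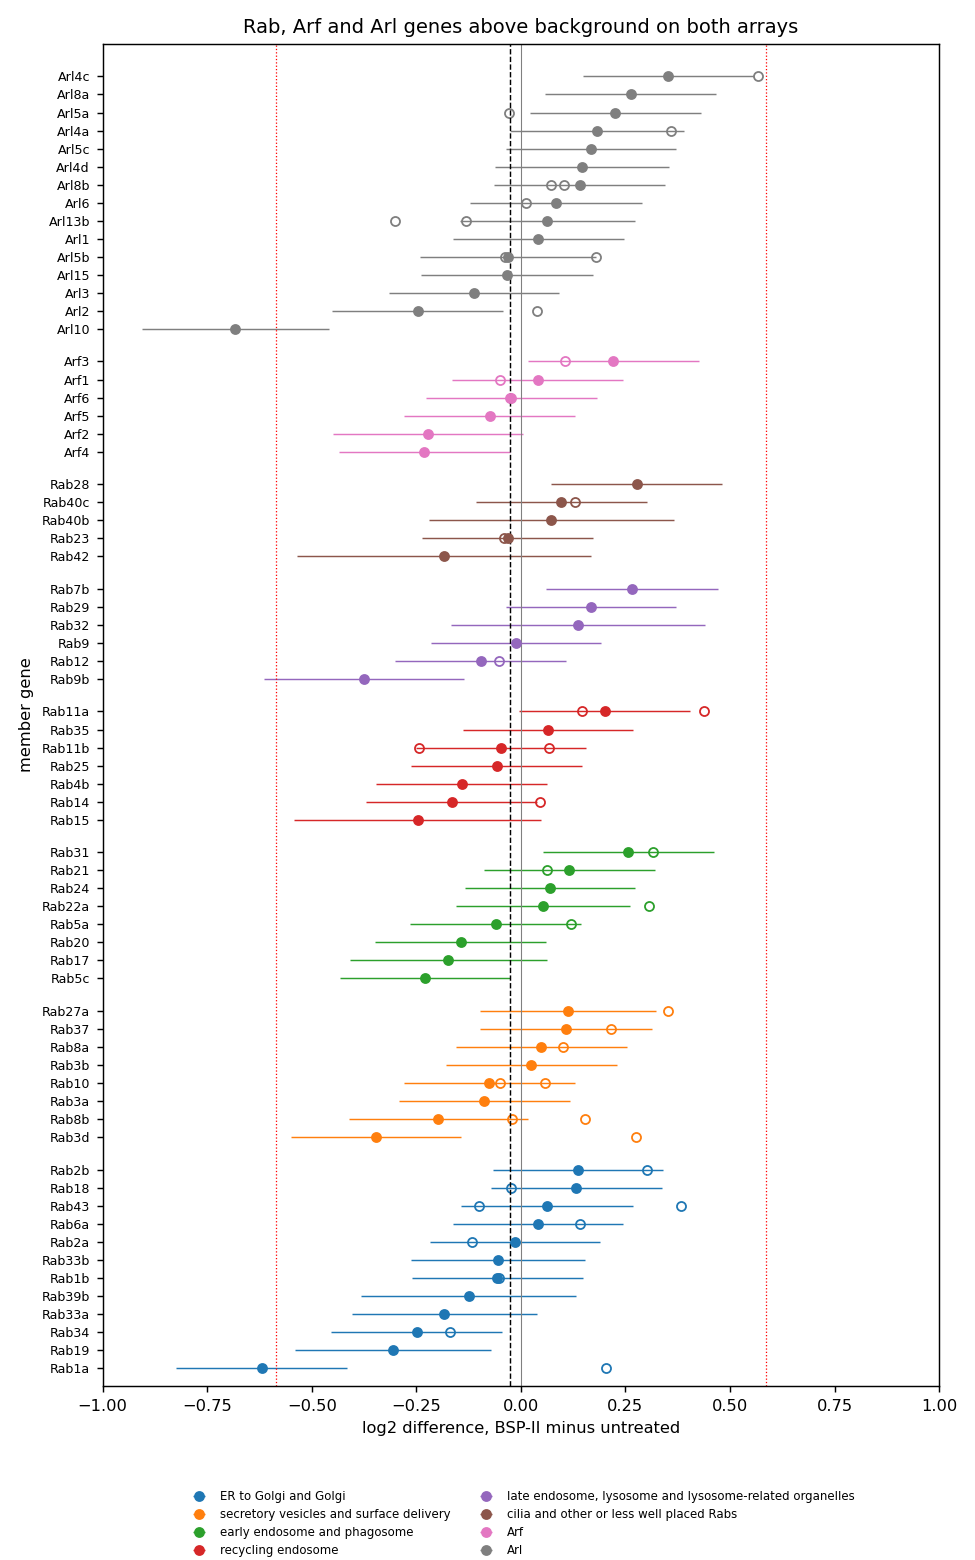
Log2 difference, BSP-II minus untreated, of the 67 measured members, grouped by compartment or family. Filled points are the brightest probe of each gene with Agilent's spot error as bars, open points its other measured probes, the dashed line the median of all genes (−0.03) and dotted lines 1.5-fold. Rab1a and Arl10 stand lowest, and the other probe of Rab1a lies at 0.20.

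The Rabs of the route between endoplasmic reticulum and Golgi had a median of −0.06 over 12 measured genes of 15, with 5 above the all-gene median. Rab1a, which governs traffic from the endoplasmic reticulum to the Golgi, had a scaled signal of 8681 on the untreated and 5648 on the BSP-II array, a difference of −0.62 (1.54-fold lower) with a spot error of 0.20. The other Rab1a probe went the opposite way, at 0.20. Among the 1350 genes with a pair of bright probes, 0.519% had a gap at least as wide as that of Rab1a, 0.82. Combining the probes by their median gave −0.21, and the call at 1.5-fold was lost. Rab1b, the close paralogue of Rab1a, had signals of 3439 and 3307, with differences of −0.06 and −0.05 at its probes. Rab1a and Rab1b are alike in sequence, and which transcripts each probe reads was not tested.

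Other Rabs of this route were nearer to 0. Rab2a, of the early secretory pathway, stood at −0.01 and its paralogue Rab2b at 0.14, with other probes at −0.12 and 0.30. Rab6a, of traffic within and back from the Golgi, had signals of 4427 and 4555 and a difference of 0.04, with 0.14 at its other probe. Rab18, found on endoplasmic reticulum and lipid droplets, stood at 0.13 and −0.02. The Golgi-associated Rab19 was at −0.31, from dim signals of 46.2 and 37.4. Rab34 was at −0.25, from 311 and 262, with −0.17 at its other probe. Rab33a, Rab33b and Rab39b lay between −0.18 and −0.05. Rab43 was at 0.06 by its brightest probe and at −0.10 and 0.38 by the others.

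The Rabs of secretory vesicles and delivery to the surface had a median of −0.03 over 8 measured genes of 11. Rab3d, a Rab of secretory granules, had probes that disagreed: the brighter had 2530 untreated and 1990 with BSP-II, at −0.35, and the other stood at 0.28. Of the bright probe pairs of all genes, 1.93% had a gap at least as wide. Rab10, which serves delivery to the plasma membrane, had signals of 8340 and 7914, with differences of −0.08, 0.06 and −0.05 at its 3 probes. Rab27a, which docks lysosome-related granules and is needed for the killing by cytotoxic lymphocytes, had 105 and 113, at 0.11, with 0.35 at its other probe. Rab37 was higher at both probes, by 0.11 and 0.22. Rab8a, which acts between Golgi and surface, was at 0.05 and 0.10, and Rab8b at −0.20, −0.02 and 0.15. Rab3a and Rab3b stood at −0.09 and 0.02.

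The Rabs of early endosomes and phagosomes had a median of 0.00 over 8 of 9 genes. Rab5a, the Rab of early endosome fusion, was measured by 8 spots of its brighter probe, which gave −0.06 ± 0.05 (SD over 8 spots of 1 pair of arrays, not over cultures), from signals of 3033 and 2909; the other probe gave 0.12. Rab5c had 2792 and 2382, at −0.23. Rab31, of traffic between the Golgi and endosomes, was higher at both probes, by 0.26 and 0.32, with signals of 679 and 811 at the brighter. Rab20, a phagosomal Rab known to respond to hypoxia, had 695 and 629, at −0.14. Rab21 and Rab22a, both of early endosomes, stood at 0.12 and 0.05, with 0.06 and 0.31 at their other probes. Rab24 and Rab17 were at 0.07 and −0.17.

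The Rabs of recycling endosomes had a median of −0.06 over 7 of 7 genes, with 2 above the all-gene median. Rab11a, the main Rab of recycling, was higher by all 3 measured probes, at 0.20, 0.15 and 0.44, with signals of 3331 and 3827 at the brightest. Its paralogue Rab11b was at −0.05, −0.24 and 0.07. Rab35, of fast recycling, had 5793 and 6059, at 0.06. Rab14 was at −0.17 with 0.04 at its other probe, Rab4b at −0.14, and Rab25, best known in epithelia, at −0.06. The dim Rab15, from 20.9 to 17.6, was at −0.25.

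The Rabs of late endosomes, lysosomes and related organelles had a median of 0.06 over 6 of 7 genes. Rab7b, of traffic from late endosomes to the Golgi, had signals of 154 and 185, at 0.27, and Rab29, a Rab tied to LRRK2 and the Golgi, 666 and 748, at 0.17. Rab9, which returns mannose 6-phosphate receptors to the Golgi, stood at −0.01, whereas Rab9b, at dim signals of 38.4 and 29.6, stood at −0.38. Rab12 was at −0.10 and Rab32, a melanosome Rab, at 0.14 near background (18.5 and 20.4). Of the Rabs placed elsewhere, with a median of 0.07 over 5 genes, Rab28 was at 0.28, from 797 and 965. Rab23, an inhibitor of hedgehog signalling, was at −0.03, and Rab40b, Rab40c and Rab42 lay between −0.18 and 0.10.

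The 6 Arf genes, which recruit coats, had a median of −0.05. Arf1, which loads the COPI coat on the Golgi, had signals of 15090 and 15517, with differences of 0.04 and −0.05 at its probes. Arf4, also of the Golgi, had 37216 untreated and 31711 with BSP-II, at −0.23 by its single probe. Arf3 went the other way, at 0.22 and 0.11, from 3483 to 4059. Arf6, the Arf of the plasma membrane, was at −0.02 and −0.03, from 13250 and 13043. Arf5 was at −0.07 and the dim Arf2 at −0.22.

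The Arl genes had the highest median of these groups, 0.08 over 15 of 16 genes, and 10 lay above the all-gene median. That median lay 0.11 above the all-gene median, and 0.12 above it under loess and under quantile scaling. Median scaling and the authors' deposited table shift each array by a constant, so they could hardly move this gap. Arl4c had the highest difference of the 67 members measured on both arrays, 0.35 from 487 untreated to 622 with BSP-II, and its dimmer probe, at a clustered spot, gave 0.57. A clustered spot had at least 2 others within 3 rows and columns that were 2-fold different in a shared direction. The brightest probes of Arl3, Arl15, Rab10 and Rab5b lay at such spots, as did 1 of the 8 Rab5a spots. Dimmer probes of Rab8b, Rab10 and Arl13b did too. Arl4a was at 0.18 and 0.36, the latter also at a clustered spot, and Arl4d at 0.15. The Arl4 proteins bring cytohesins, exchange factors of Arf6, to the plasma membrane. All 5 measured probes of the 3 Arl4 genes were thus above 0, and this branch was picked out after its values were seen. Each gene also lay above 0 under loess, quantile and median scaling and in the authors' deposited table. That is a weak check, because these settings raised the all-gene median by 0.03 to 0.13.

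The lysosomal pair Arl8a and Arl8b, which couple lysosomes to kinesin, was also above 0 at all 4 probes. Arl8a had 3649 and 4377, at 0.26, and Arl8b 4382 and 4831, at 0.14, 0.07 and 0.10. Arl5a had 432 and 505, at 0.23 (clustered spot), with −0.03 at its other probe. Arl5c was at 0.17, and Arl5b at −0.03, with 0.18 and −0.04 at its other probes. Arl10 was the lowest member, at −0.68 (1.61-fold lower) by 1 probe at dim signals of 68.0 and 42.3, in the dimmer range where 10.8% of genes were past 1.5-fold. Its difference was −0.25 with normexp correction and −0.39 without background subtraction. Arl2, which acts in tubulin folding, had 1789 and 1507, at −0.25, but stood at 0.04 by its other probe. Of the cilium genes, Arl3 stood at −0.11, Arl6 at 0.08 and 0.01, and Arl13b at 0.06 by its brightest probe but at −0.13 and −0.30 by the others. Arl1, which recruits golgins to the Golgi, was at 0.04. Arl15 was at −0.03.

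**Figure D3:**
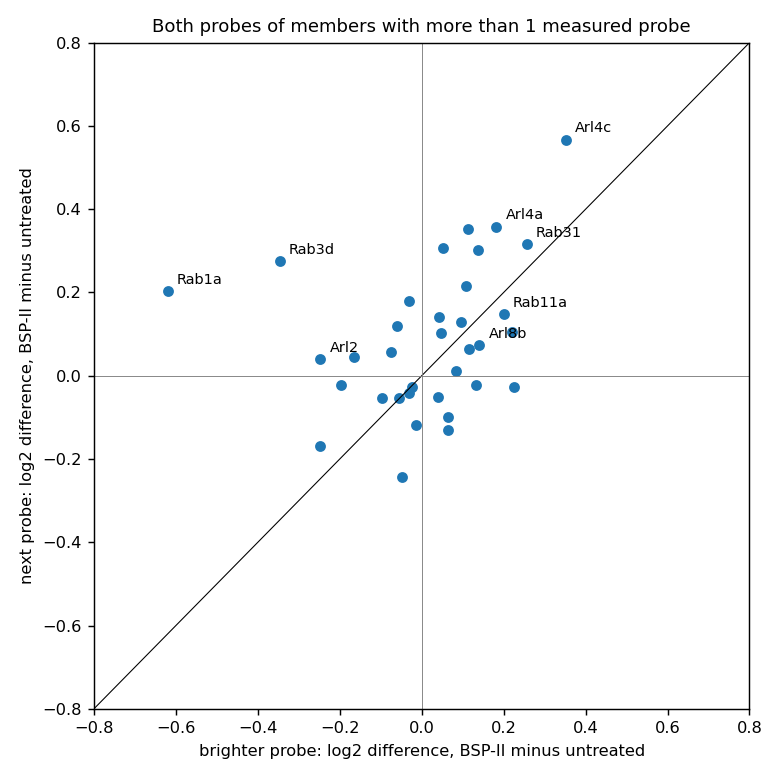
Log2 difference, BSP-II minus untreated, at the brightest (x axis) and next (y axis) measured probe of the 35 members with more than 1. The diagonal marks equal differences; Rab1a (−0.62 and 0.20) and Rab3d (−0.35 and 0.28) stand off it, and Arl4c (0.35 and 0.57) has the highest values at both.

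The remaining 9 members were not well above background on both arrays. On the BSP-II array only were Rab5b, Rab6b, Rab13, Rab30 and Rab39 (5 of 76 members), and none was on the untreated array only; over all 17302 named genes, 5.58% and 0.416% were. The arrays had unlike floors: the lowest signal well above background was 11.8 on the untreated and 7.66 on the BSP-II array, unscaled, and the part of this in the count was not tested. The fold is the BSP-II signal over the higher of the untreated floor and the probe's own untreated signal. It is a lower bound only where the floor is the higher, and otherwise it is the ratio of the probe's own signals. Rab6b, the neuronal relative of Rab6a, had scaled signals of 14.9 untreated and 24.7 with BSP-II. This is a ratio of 1.66, a log2 difference of 0.73 with a spot error of 0.37. Rab30, a Golgi Rab, had 8.55 and 14.9 and was at least 1.18-fold higher against the floor. Rab5b had 13.4 and 14.6, a ratio of 1.09, with a log2 difference of 0.12 and a spot error of 0.40. Rab13 had 7.96 and 9.54, and Rab39 11.2 and 9.04; for these no bound above 1 could be given. Rab3c, Rab27b, Rab38 and Arl11 were not well above background on either array, as were 19.7% of all named genes. Rab3c is a Rab of regulated secretion in neurons, and Rab38 acts with Rab32 in melanosomes.

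The genes that control or read these GTPases were described through 8 lists, which together held 235 genes, of which 198 were measured. The lists were written with earlier results of these data known. The median difference of the measured genes was 0.03, and 129 of 198 lay above the all-gene median, where 50% of all genes lie. At least 1.5-fold higher were 3, and lower 1, against 1.21% and 4.83% of all genes. The higher genes were all dim: the exchange factor gene Dennd2c (0.77, from 29.1 to 49.9), the Rab8 effector Optn (0.69, from 23.0 to 37.1, at a clustered spot) and the Rab11 effector Rab11fip5 (0.68, from 31.6 to 50.7). The lower was Tbc1d4, a Rab GTPase-activating protein of GLUT4 traffic, at −0.67 from 41.8 to 26.2.

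By list, the 12 measured genes of Rab prenylation, escort and GDI had a median of 0.05. Rabggtb, the catalytic subunit of the enzyme that attaches the Rab lipid anchors, was at −0.35 and −0.22 by its probes, from 3365 to 2641, and its partner Rabggta at 0.18 and 0.03. Rab exchange factors had a median of 0.03 over 41 genes (Dennd1c 0.54, Rin1 −0.37, Sbf1 0.36). Rab GTPase-activating proteins had 0.00 over 33 (Tbc1d7 0.50, Tbc1d25 −0.46, Tbc1d20 −0.43 at a clustered spot and 0.11 at its other probe). Rab effectors had the highest median, 0.09 over 35, with 26 above the all-gene median. Rab11fip1 was at 0.52 by its brighter probe and 0.00 by the other, and Bicdl1 at −0.47.

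Arf exchange factors had a median of 0.05 over 13 genes. Cyth4, a cytohesin of blood cells, was at −0.46 from 37369 to 27136, but 0.18 and 0.20 at its next probes. Cyth3, at a clustered spot, was at 0.38 and Arfgef2 at 0.24. Arf GTPase-activating proteins had a median of 0.03 over 20 (Arfgap1 −0.32, Arap1 −0.27, Git1 0.27, Elmod3 0.24). Effectors of Arf and Arl with the COPI coat had 0.03 over 34. The COPI subunit gene Copg2 was lower at 3 probes, at −0.56, −0.43 and −0.14, with signals of 288 and 196, under the median level. The other COPI subunit genes of this list lay between −0.15 and 0.20 at their brightest probes. The golgin Gcc2 was at 0.35, the adaptor Gga2 at 0.29 and Unc119 at 0.26. The related small GTPases had a median of −0.08 over 10, with 1 above 0 (Rabl6 −0.46, Ift27 −0.21, Ran −0.17 at a clustered spot, Srprb −0.15).

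**Figure D4:**
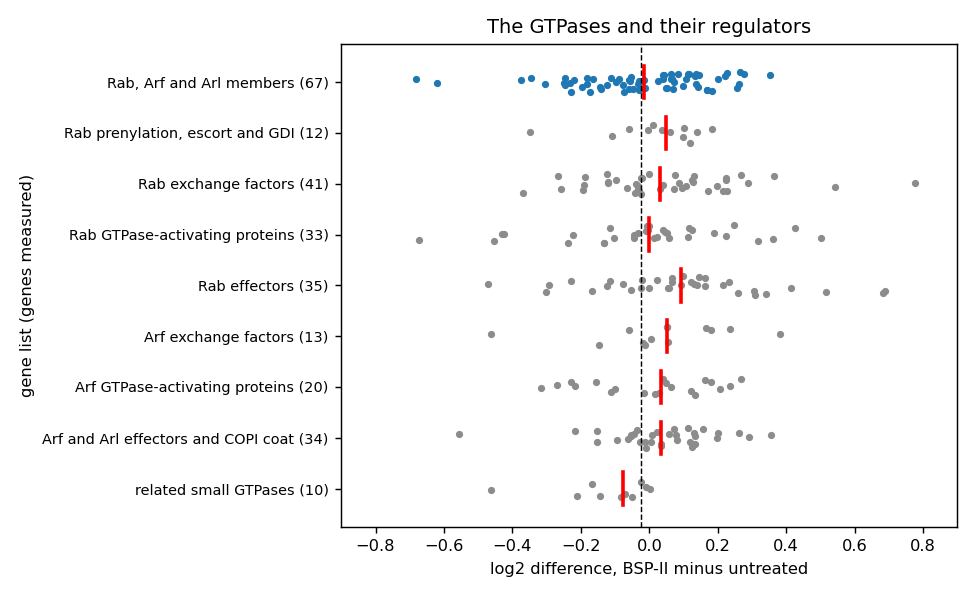
Log2 difference, BSP-II minus untreated, of each measured member (blue) and of each measured gene in the 8 lists of regulators, effectors and relatives (grey), with the median of each list as a red bar and the median of all genes (−0.03) as a dashed line. The list medians lie between −0.08 and 0.09, close to that of the members (−0.01).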

How the data were processed

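Cy3-labelled RNA of each dose was read on 1-colour Agilent arrays; the software was Agilent Feature Extraction 10.5.1.1, as the submitters' processing notes state. Intensity columns, as deposited and per the file headers, hold raw median pixel brightness of spot and local background, and also a background-subtracted processed signal with its error, per the file headers. The deposited flags (unit "other") mark saturated, outlier and well-above-background spots. The authors' deposited log2 table lists 23296 probes; it equals log2 of the processed signal plus a constant per array (−4.85 and −4.94) within 0.001 for at least 99.8% of probes, with medians of 2.88 and 2.99. Sources used here do not state the origin of its constants.

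Probes were named by RefSeq accession without version through a GRCm38.p6 gene table (25091 of 41163 probes); the array grid was built on mm9, so no array coordinates are given. Control spots and 189 flagged spots, 2 of them of members, were left out, and log2 processed signals were reduced by the array's 75th percentile. Spots of a probe were averaged, and a probe counted as above background if more than 50% of its spots were. A gene took its brightest probe. Of the members, signals on both arrays are given for those at least 1.5-fold different, the 8 highest, 8 lowest and 8 brightest, those on 1 array only and a fixed set (Rab5a, Rab5c, Rab27a, Rab20, Arf1, Arf6, Arl8b), and up to 4 genes are named per list. Members and lists were chosen with earlier results of these data known. The number of arrays, 1 per group, limits the precision. Steps were tested on simulated data. Python 3.11.15, numpy 2.4.6, pandas 2.3.3, statsmodels 0.14.6 and limma 3.58.1 (normexp, offset 50, on the median signal) were used.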

Additional observations from a re-analysis of the deposited data

How the results depend on the processing

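No paired analysis was possible because both groups share only replicate number 1. Median, quantile and loess scaling, the authors' table, normexp, unsubtracted signals, other filters, other probe rules and corrections for place on the array were tried. The members' median, −0.01 as reported, ran from −0.03 to 0.11 over the 13 settings. It was 0.11 with median scaling and in the authors' table, where the all-gene median was 0.10. In each setting it lay above the all-gene median, by 0.005 to 0.07. Members past 1.5-fold, 2 as reported, were 0 with median or quantile scaling, in the authors' table, with normexp and without background subtraction. They were 1 among genes at or above the median level, with the median of probes and after local medians (10 rows and columns to each side) were subtracted. With positive-and-significant flags they were 4, and with no filter on dim probes 8, of which 1 passed 2-fold. Measured members were 41 among genes at or above the median level, 21 of them above the all-gene median, and counting each probe singly gave 110, with 64 above. Role groups with a median above that of all genes were 5, but 2 with normexp. They were 4 with quantile or loess scaling, in the authors' table and among genes at or above the median level. They were 6 with each probe counted singly and after local medians were subtracted. Of 776 values of single members under the settings with 1 value per gene, 766 moved by less than the software's spot error and 10 by more. Many of the 766 could not move. The other filters reuse a member's main value, and so does the median of probes where 1 probe was measured. Leaving out clustered spots changes only members that have them. With 1 value per gene, Rab1a and Arl10 stayed below 0 in each setting that held them. Arl10 was not among the genes at or above the median level. Counted singly, the dimmer Rab1a probe lay above 0, at 0.20. Over the scalings and the authors' table, 51 of 67 members kept their sign. Of these, 32 lay above 0, where settings that raised the all-gene median could hardly reverse them, and 19 below 0. Depth of signal limits the dimmest members, such as Rab32, Rab40b and Rab42.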
